A study of Rattus norvegicus with 6 samples.

Results

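The 68 genes described here are the brightest signals of the sham-operated rat heart that remain once ribosomal protein genes, some metabolic and transport families and a set of named single genes are set aside. Probes were ranked by value within each of the 3 sham arrays, with rank 1 the brightest, and the 3 ranks were averaged. Of the 1185 probes on the array, 1113 carry a single gene symbol, and the 100 brightest of these were taken. Removing a fixed set of symbols (names beginning Rps, Rpl, Slc, Cox, Atp, Acad, Fabp, Mdh, Idh, Rab or Arf, and 18 single genes such as Myh6, Sparc and Gapdh) took out 32 probes and left 68, each for a different gene. Contractile genes that the rule does not name, Tnnt2 among them, stay in the set. The samples are whole hearts, 1 array each, from 3 rats put on cardiopulmonary bypass (CPB, where a machine does the work of heart and lungs) and 3 sham-operated rats. The labels give no strain, age, allele, further agent, time of sampling or length of bypass. Nothing in the labels says more of the animals than their group and number, so p-values measure only the spread between these 6 samples.

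Places 99 and 100 were taken by Rph3a and Hadha, and places 101 and 102 by Tomm20 and Ap2m1, so the edge of the set is soft. Rph3a, Hadha and Tomm20 shared a mean sham rank of 120.8. Hadha had normalized log2 intensities of 11.54, 11.31 and 11.33 on sham replicates 1, 2 and 3, and Tomm20, a receptor of mitochondrial protein import, had the same 3 values. On CPB replicates 1, 2 and 3 Hadha stood at 11.81, 10.87 and 11.77, and Tomm20 at 11.54, 11.74 and 11.93. That tie was broken by probe identifier. Rph3a stood at 11.13, 11.74 and 11.33 on the sham replicates, and Ap2m1, a clathrin adaptor subunit, at 10.88, 11.60 and 11.74 with a mean rank of 123.0. Ap2m1 was at 11.13, 11.54 and 12.19 on the CPB replicates.

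Background helps to place these genes. Heart muscle contracts without pause, and most of its transcripts serve the sarcomere, the mitochondria that burn fatty acids for it, and the protein synthesis that maintains both. Housekeeping genes of the cytoskeleton, translation and membrane traffic are also abundant in most cells. The brightness of a probe depends on its sequence and labelling as well as on RNA amount, so a rank orders probes and does not order the transcripts of different genes. In whole hearts, fewer cells of a type and less RNA per cell cannot be told apart.

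The promoters of 4 members are shown because 1 of them (Tnnt2) was the brightest member and the others (Flg, Acat1 and Hnrnpa1) were the members whose CPB and sham values did not overlap. Each is the 150 bases before the RefSeq transcription start in build GRCr8, 5′ to 3′ on the strand of the gene, and capitals mark the TATA box core (TATAAA), the CCAAT box and the GC box (GGGCGG) on either strand.
Tnnt2 (chr13:49818973-49819122, plus strand): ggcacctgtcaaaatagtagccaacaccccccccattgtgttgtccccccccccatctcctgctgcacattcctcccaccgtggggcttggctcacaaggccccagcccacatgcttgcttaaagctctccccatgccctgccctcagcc
Flg (chr2:181583651-181583800, plus strand): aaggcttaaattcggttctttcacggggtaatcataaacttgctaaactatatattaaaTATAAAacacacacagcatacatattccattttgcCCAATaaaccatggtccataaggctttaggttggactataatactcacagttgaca
Acat1 (chr8:62905043-62905192, minus strand): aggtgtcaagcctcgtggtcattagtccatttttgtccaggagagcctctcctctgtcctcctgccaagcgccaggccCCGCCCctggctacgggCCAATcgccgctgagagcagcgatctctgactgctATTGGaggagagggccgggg
Hnrnpa1 (chr7:136253968-136254117, plus strand): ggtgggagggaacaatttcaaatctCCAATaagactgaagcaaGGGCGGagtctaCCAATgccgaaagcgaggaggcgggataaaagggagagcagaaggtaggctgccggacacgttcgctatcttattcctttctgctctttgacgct

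The Acat1 and Hnrnpa1 windows each held 2 CCAAT and 1 GGGCGG match and 8 CG pairs. The Flg window held a TATAAA and a CCAAT match and 2 CG pairs, while the Tnnt2 window held no match and 1 CG pair. RefSeq gave a full-length promoter for 57 of the 68 members. Over the 250 bases before the start, GGGCGG on either strand was present in 39 of these 57 promoters (68.4%), in 50.4% of 893 promoters of genes on the array and in 32.4% of the 27457 promoters in the table. The median GC content of these 3 sets was 63.2%, 58.4% and 52.0%, and the median count of CG pairs 16, 13 and 6. Whether the GGGCGG shares differ beyond this base composition was not tested. CCAAT was present in 26 of the 57 (45.6%), against 36.5% of the array's genes and 34.3% of the table. TATAAA was present in 8 of the 57 (14.0%), against 12.3% and 13.1%. The 3 motifs were counted separately. The 8 were Errfi1, Mat2a, Flg, Myh3, Pgam2, Echs1, Myh9 and S100a9. A match describes the letters of this window and is not a binding site.

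All 6 cardiomyocyte markers measured of 14 listed lay among the 100 brightest sham probes (Tnnt2, Myh6, Tnni3, Pln, Ckm and Casq2). No marker of endothelial, erythroid, adipocyte, skeletal muscle or liver cells was measured under its own symbol. The summed level of the cardiomyocyte markers, on the log2 scale, ran from 19.23 to 19.26 on the CPB arrays and from 19.22 to 19.30 on the sham arrays. Quantile normalization gives the brightest ranks the same values on every array, so this closeness does not measure cardiomyocyte content. In the values as deposited the sum ran from 19.32 to 19.44 on the CPB arrays and from 18.91 to 19.36 on the sham arrays. With the arrays scaled to a common median it ran from 18.98 to 20.10 and from 18.50 to 19.59. None of the members was at the lowest listed level of any array. They lay 5 to 697 whole steps above it on sham replicate 1, and the nearest value to it was 2 steps, for S100a9 on CPB replicate 1. The step is the smallest difference an array records (80.1 to 359.6 linear units), so a single step is a coarse change for the dimmer members.

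The CPB arrays played no part in the choice of the members, and the brightness order carried over to them. On CPB replicates 1, 2 and 3, 53, 51 and 57 of the 68 members ranked within the 100 brightest of all 1185 probes, against 52, 55 and 58 on sham replicates 1, 2 and 3. The median rank of the members was 63.0, 69.3 and 57.3 on the CPB arrays and 64.0, 63.3 and 62.0 on the sham arrays. On the 3 CPB arrays 43 members were within rank 100 on every array, and 37 were so on all 6 arrays. Within rank 50 on all 6 arrays were 15, namely Tnnt2, Ybx1, Tpt1, Ndufa5, Got1, Arl1, Dlx5, Actb, Ndufs6-ps1, Cltb, Acat1, Errfi1, Ppp1cb, Hsd17b4 and Eef1a1. Nudt6, S100a9, Ptgr1 and Mef2d were within rank 100 on no CPB array. Ranks ranged over 23.5 places across the 3 sham arrays at the median of the members, from 1.0 for Tnnt2 to 116.0 for S100a9.

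**Figure D1:**
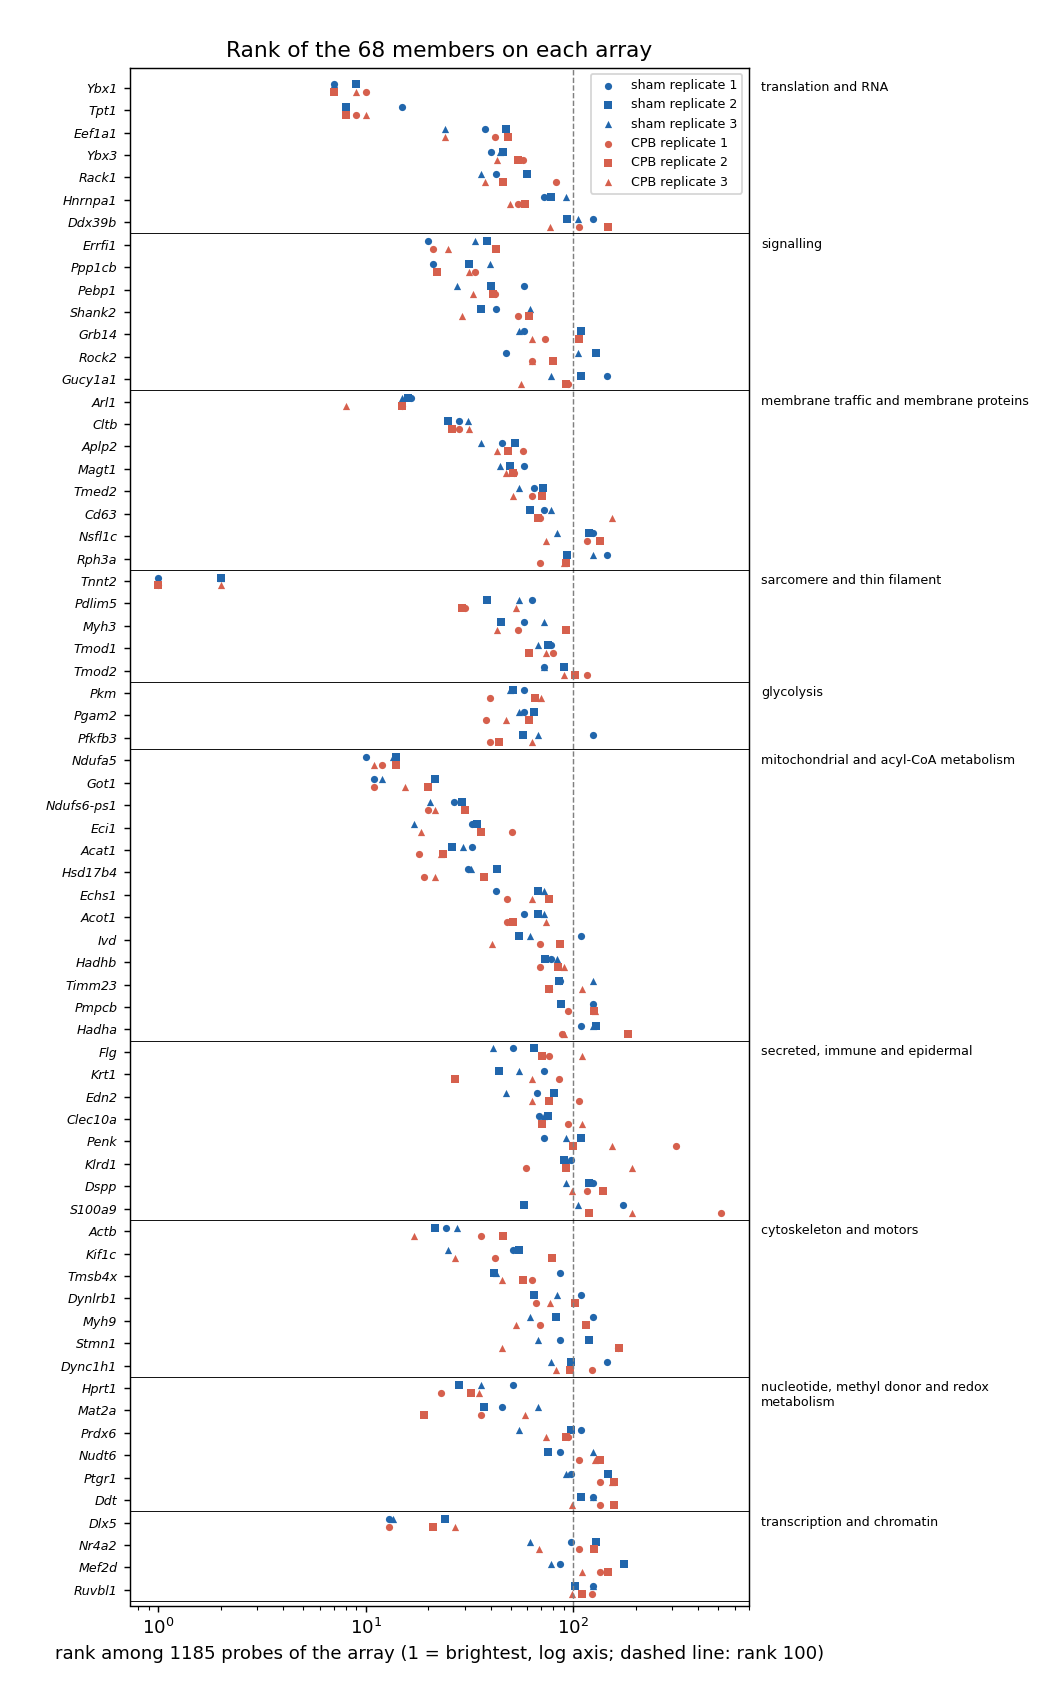
Rank of each of the 68 members (rows, grouped by role) among the 1185 probes of each array, on a log axis with 1 the brightest. Blue symbols are sham arrays, red symbols CPB arrays, and circles, squares and triangles are replicates 1, 2 and 3. Tnnt2 holds rank 1 or 2 on every array, and S100a9 runs from 58.0 on sham replicate 2 to 513.0 on CPB replicate 1.

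No member differed between CPB and sham hearts past the threshold. The limma fit over the whole table, with Benjamini-Hochberg adjustment, called 0 of 1185 probes at an adjusted p under 0.05 (0%) and 0 of the 68 members, whose lowest adjusted p was 0.909. Without adjustment, 3 members had a p under 0.05 with a lower CPB mean (Flg, Penk and S100a9), where 2.11% of all probes did, and 1 had it with a higher CPB mean (Pfkfb3), where 0.844% did. The CPB values were all below the sham values for 1 member, Flg, against 2.62% of all probes, and all above them for 2 members, Acat1 and Hnrnpa1, against 1.6%. The sham values that chose the members also enter each difference, and choosing by a high sham value favours a lower CPB value, so these counts are a description.

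The size and sign of the typical difference depended on how the arrays were scaled. After quantile normalization the CPB mean was lower for 37 of the 68 members, against 52.5% of all probes, and higher for 31, against 47.5%, with a median log2 difference of -0.03 over the members and -0.03 over all probes. In the values as deposited the members' median was -0.01 and that of all probes -0.29. With the arrays scaled to a common median the members' median was 0.38 and that of all probes 0.11, and 5 members had a lower CPB mean (Flg, Penk, S100a9, Nudt6 and Ptgr1). The share of all probes with a lower CPB mean was not counted on that scale. As 5 of the 68 members were lower there, a role group below with none lower after median scaling is not set apart by that count. Between 10.7% and 47.3% of the probes of an array were at its lowest level, and its median lay few steps above that level. Median scaling therefore depends on the lowest level and step size of each array, which limits it as a check. Median scaling shifts the deposited difference of every probe by the same amount. Relative to the median of all probes the members thus stood at 0.28 both as deposited and after median scaling, by construction. After quantile normalization they stood at 0.0034. Other members whose groups did not overlap came up under median scaling (Arl1, Hsd17b4 and Gucy1a1, each higher in CPB), where Flg, Acat1 and Hnrnpa1 overlapped. The share of all probes with groups apart was not counted on that scale. Unless another scaling is named, values below are quantile normalized log2 intensities, and differences are CPB minus sham.

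**Figure D2:**
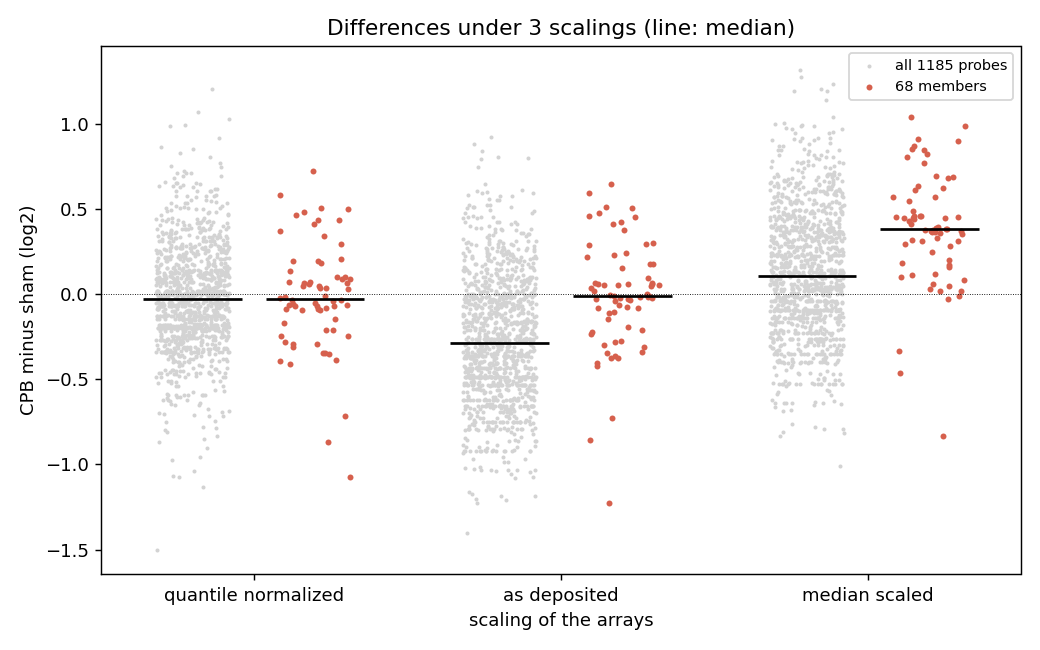
CPB minus sham difference (log2, vertical axis) of all 1185 probes (grey) and the 68 members (red) under quantile normalization, as deposited and after median scaling, with a black line at each median. The members' median lies at -0.03, -0.01 and 0.38, and that of all probes at -0.03, -0.29 and 0.11.

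Among the 5 sarcomere and thin filament members, differences ran from -0.41 to 0.50, and the 2 with a lower CPB mean had a higher one after median scaling. Tnnt2, cardiac troponin T, which ties the troponin complex to tropomyosin, was the brightest member. It stood at 18.01, 17.70 and 17.70 on sham replicates 1, 2 and 3 and at 18.01, 18.01 and 17.70 on CPB replicates 1, 2 and 3. The 2 groups overlap completely, because quantile normalization gives the same value to every array's brightest probe and Tnnt2 was always first or second. Its difference of 0.10 (SE 0.30) therefore carries rank alone. As deposited it was 0.37, with all CPB values above all sham values, and after median scaling 0.77, with overlap.

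Pdlim5, a PDZ and LIM domain protein of the Z disc, stood at 12.37, 13.06 and 12.54 on sham replicates 1, 2 and 3 and at 13.42, 13.48 and 12.58 on the CPB replicates. CPB replicate 3 lay among the sham values, and the difference was 0.50 (SE 0.32). Tmod2, a tropomodulin that caps the slow-growing ends of actin filaments, was at 12.15, 11.77 and 12.15 on the sham replicates and at 11.45, 11.60 and 11.77 on the CPB replicates. The highest CPB value met the lowest sham value, and the difference of -0.41 (SE 0.28) was 0.03 after median scaling. Tmod1, the main tropomodulin of striated muscle, differed by 0.05 (SE 0.27). Myh3, the embryonic myosin heavy chain, differed by -0.09 (SE 0.33), and by 0.31 after median scaling.

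The 7 cytoskeleton and motor members had differences between -0.31 and 0.20, with 4 lower in CPB and none lower after median scaling. Actb, the beta-actin of the general cytoskeleton, stood at 13.70, 13.83 and 13.54 on sham replicates 1, 2 and 3 and at 13.14, 12.82 and 14.19 on the CPB replicates. The sham values kept close together while the CPB values lay on either side of them, and the difference was -0.31 (SE 0.34), or 0.05 after median scaling. It was -0.02 without CPB replicate 2 and -0.72 without CPB replicate 3. Stmn1, which binds tubulin and destabilises microtubules, ranked 163.5, 166.5 and 45.5 on CPB replicates 1, 2 and 3 against 86.0, 118.5 and 67.5 on the sham replicates. Tmsb4x (a thymosin that holds actin monomers), Myh9 (non-muscle myosin), Kif1c (a kinesin), Dynlrb1 and Dync1h1 (a light and the heavy chain of dynein) had differences between -0.09 and 0.20. Of 33 cytoskeleton genes listed, 7 were measured, 4 of them members, and 0 passed the threshold in either direction.

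The largest group held 13 members of mitochondrial and acyl-CoA metabolism, with differences from -0.28 to 0.47 and a median of 0.07. A lower CPB mean was found for 6 of the 13, and for none after median scaling. Acat1, the thiolase that makes and splits acetoacetyl-CoA, stood at 13.30, 13.60 and 13.45 on sham replicates 1, 2 and 3 and at 14.11, 13.76 and 13.78 on the CPB replicates. The lowest CPB value lay 0.16 above the highest sham value and CPB replicate 1 was the brightest, for a difference of 0.43 (SE 0.27). It was between 0.32 and 0.52 with any single array left out. Hsd17b4, which carries out steps of peroxisomal fatty acid oxidation, differed by 0.47 (SE 0.31), with overlapping groups. It was 0.27 without CPB replicate 1 and 0.71 without CPB replicate 2.

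The remaining enzymes of acyl-CoA metabolism differed less. Eci1, an enoyl-CoA isomerase, stood at -0.28 (SE 0.37), and at 0.02 after median scaling. Echs1, the short-chain enoyl-CoA hydratase, differed by -0.06 (SE 0.31). Hadhb and Hadha, the 2 subunits of the mitochondrial trifunctional protein, differed by -0.07 (SE 0.28) and 0.09 (SE 0.32). Acot1, a thioesterase that releases fatty acids from CoA, differed by 0.20 (SE 0.28), and Ivd, which oxidises isovaleryl-CoA from leucine, by 0.21 (SE 0.35).

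Ndufa5, a subunit of respiratory complex I, was the fourth-ranked member, at 15.05, 14.49 and 14.55 on sham replicates 1, 2 and 3 and at 14.68, 14.49 and 14.83 on the CPB replicates. The CPB range lay inside the sham range, with a difference of -0.03 (SE 0.28). Ndufs6-ps1 is annotated as a pseudogene, so its probe cannot be told apart from a transcript of the parent complex I gene where the sequences match. It held ranks 20.0, 30.0 and 21.5 on the CPB replicates and 26.5, 29.0 and 20.5 on the sham replicates. Got1, the cytosolic aspartate aminotransferase of the malate-aspartate shuttle, stood at 14.83, 13.83 and 14.68 on sham replicates 1, 2 and 3 and at 14.83, 13.90 and 14.36 on the CPB replicates. In each group the array numbered 2 was the lowest for Got1, and the difference was -0.09 (SE 0.33). Timm23 (a channel of the inner membrane) and Pmpcb (a peptidase that removes import signals), which bring proteins into mitochondria, differed by 0.18 (SE 0.30) and -0.04 (SE 0.30). Of 53 mitochondrial energy genes listed, 8 were measured, 6 of them members and 7 among the 100 brightest, and 0 passed in either direction.

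Glycolysis was represented by 3 members. Pfkfb3, whose product raises the activator of phosphofructokinase, stood at 11.33, 12.49 and 12.27 on sham replicates 1, 2 and 3 and at 13.02, 12.87 and 12.36 on the CPB replicates. CPB replicate 3 lay under sham replicate 2, so the groups overlap, and sham replicate 1 was well below the rest at 7 steps above its array's lowest level. The difference of 0.72 (SE 0.34) had the highest value of the members, and it was 0.37 without sham replicate 1 and 0.93 without sham replicate 2. Pgam2, the muscle phosphoglycerate mutase, differed by 0.29 (SE 0.28), and Pkm, pyruvate kinase, by -0.07 (SE 0.30), or 0.28 after median scaling. Of 28 glycolysis and carbohydrate genes listed, which did not include Pfkfb3, 8 were measured and 0 passed.

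The 7 translation and RNA members had differences between -0.24 and 0.58, with 4 lower in CPB and none lower after median scaling. Ybx1, a Y-box protein that packages messenger RNA, was the second-ranked member at 15.69, 15.21 and 15.69 on sham replicates 1, 2 and 3 and at 15.05, 15.69 and 15.21 on the CPB replicates. Tpt1, the translationally controlled tumour protein, followed at 14.41, 15.45 and 15.45 on the sham replicates and at 15.21, 15.45 and 15.05 on the CPB replicates. For Ybx1 and Tpt1 the groups shared values on several arrays, and the differences were -0.21 (SE 0.29) and 0.13 (SE 0.32). Eef1a1, the elongation factor that brings aminoacyl-tRNA to the ribosome, ranked 24.0 on both arrays numbered 3 and between 37.5 and 48.5 on the other 4.

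Hnrnpa1, which binds pre-mRNA in splicing and export, was at 12.15, 12.04 and 11.74 on sham replicates 1, 2 and 3 and at 12.55, 12.45 and 12.68 on the CPB replicates. All CPB values lay above all sham values, for a difference of 0.58 (SE 0.27), and it stayed between 0.48 and 0.65 with any single array left out. Its ranks were 54.0, 58.5 and 49.5 on the CPB replicates and 72.5, 78.5 and 92.5 on the sham replicates. Rack1, a scaffold on the small ribosomal subunit, Ybx3, a second Y-box protein, and Ddx39b, a helicase of splicing and export, differed by -0.21 (SE 0.33), -0.24 (SE 0.27) and 0.03 (SE 0.31). Of 22 RNA-binding and splicing genes listed, 7 were measured with Hnrnpa1 the single member, and of 27 translation genes 9 were measured with 3 members. In each list 0 genes passed.

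**Figure D3:**
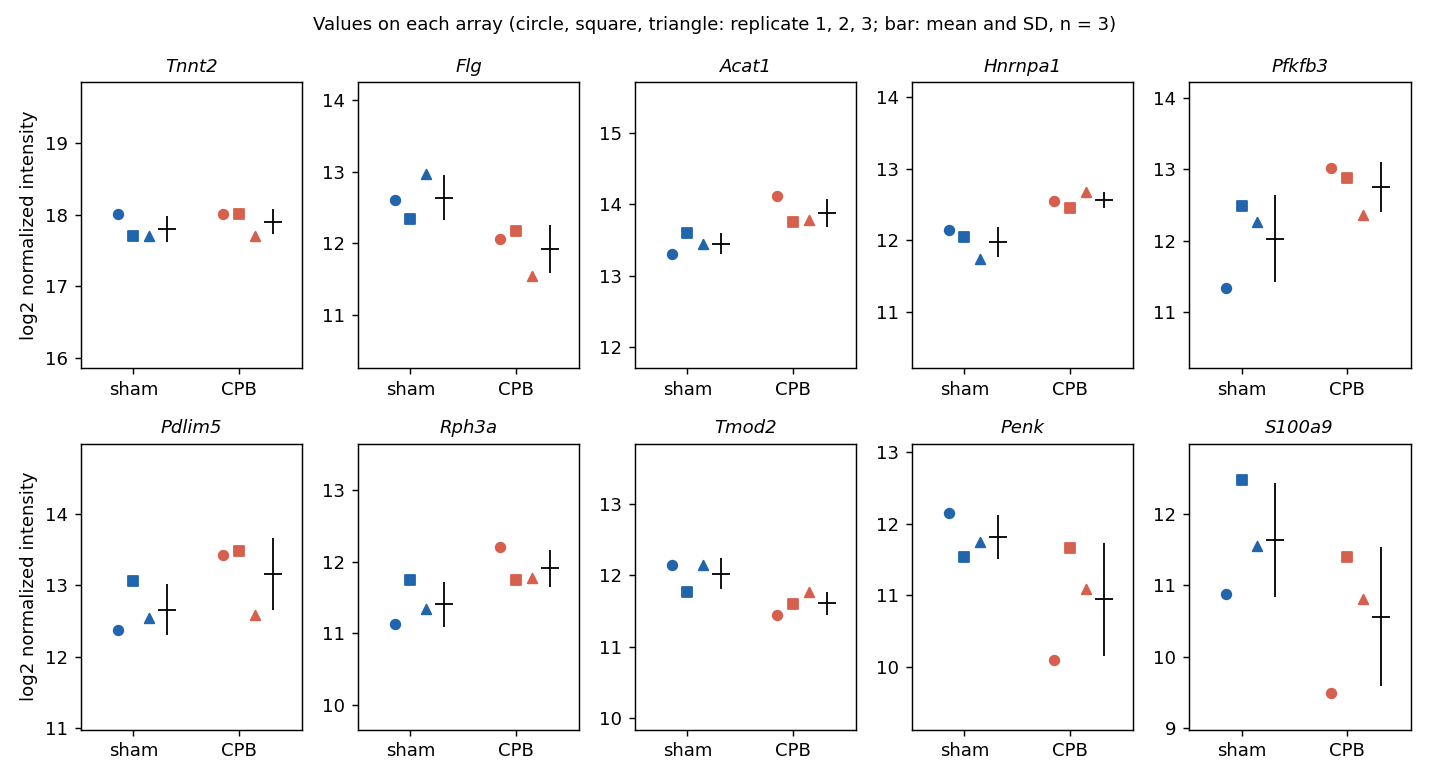
Quantile normalized log2 intensity of 10 members on each sham (blue) and CPB (red) array, with circles, squares and triangles for replicates 1, 2 and 3 and a bar for the mean and SD (n = 3). Each panel spans the same number of log2 units. Flg, Acat1 and Hnrnpa1 are the panels whose groups do not overlap.

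The 8 members of membrane traffic and membrane proteins had differences between -0.34 and 0.50, with 4 lower in CPB and none lower after median scaling. Arl1, a small GTPase of the trans-Golgi, stood at 14.24, 14.30 and 14.41 on sham replicates 1, 2 and 3 and at 14.41, 14.41 and 15.45 on the CPB replicates. Sham replicate 3 and CPB replicates 1 and 2 had the same value, so CPB replicate 3 carries most of the difference of 0.44 (SE 0.31). It was 0.10 without CPB replicate 3. Rph3a, rabphilin, known for its part in synaptic vesicle release, stood at 11.13, 11.74 and 11.33 on the sham replicates and at 12.21, 11.74 and 11.77 on the CPB replicates. CPB replicate 2 met the highest sham value, and the difference was 0.50 (SE 0.30).

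Cd63, a tetraspanin of late endosomes, ranked 69.5, 67.5 and 154.0 on CPB replicates 1, 2 and 3 and between 62.0 and 78.0 on the sham replicates. CPB replicate 3 alone set Cd63 apart, and its difference of -0.34 (SE 0.34) was 0.03 without that array and 0.06 after median scaling. Cltb, a clathrin light chain, Aplp2, a relative of the amyloid precursor, and Magt1, a subunit of the oligosaccharyltransferase, differed by -0.03 (SE 0.26), -0.14 (SE 0.28) and -0.02 (SE 0.27). Tmed2, which sorts cargo between the endoplasmic reticulum and the Golgi, and Nsfl1c, an ATPase cofactor in Golgi reassembly, differed by 0.04 (SE 0.28) and 0.07 (SE 0.32). Of 38 membrane traffic genes listed, 11 were measured, 2 of them members, and 0 passed.

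Signalling members numbered 7, with differences between -0.17 and 0.41, 2 of them lower in CPB and none lower after median scaling. Rock2, a kinase that controls actomyosin tension, stood at 12.75, 11.31 and 11.55 on sham replicates 1, 2 and 3 and at 12.37, 12.00 and 12.36 on the CPB replicates. Sham replicate 1 was above every CPB value and the other 2 sham values were below, so the difference of 0.37 (SE 0.36) rested on a wide sham spread. Without sham replicate 1 it was 0.82. Gucy1a1, a subunit of the nitric oxide receptor guanylate cyclase, differed by 0.41 (SE 0.33), by 0.15 without CPB replicate 3 and by 0.66 without sham replicate 3.

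Errfi1, a feedback inhibitor of the EGF receptor, and Ppp1cb, a catalytic subunit of protein phosphatase 1 that acts on myosin, each differed by 0.07 (SE 0.32 and 0.30). Pebp1, an inhibitor of Raf kinase, differed by 0.05 (SE 0.31). Grb14, an adaptor that restrains the insulin receptor, ranked 108.5 and 107.0 on the sham and CPB arrays numbered 2 and between 54.5 and 73.0 on the other 4. Shank2, a scaffold known from excitatory synapses, differed by -0.01 (SE 0.33). Of 50 signalling genes listed, 5 were measured, 2 of them members, and 0 passed.

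Nucleotide, methyl donor and redox metabolism gave 6 members, with differences between -0.39 and 0.48. Of these, 4 were lower in CPB, 2 of them also after median scaling. Ptgr1, which reduces prostaglandins and other reactive enals, stood at 11.70, 11.13 and 11.74 on sham replicates 1, 2 and 3 and at 11.26, 11.08 and 11.08 on the CPB replicates. Sham replicate 2 lay between the CPB values, and the difference was -0.39 (SE 0.30), or -0.01 after median scaling. Nudt6, of the Nudix hydrolase family, differed by -0.39 (SE 0.30). Mat2a, which makes S-adenosylmethionine, ranked 36.0, 19.0 and 58.5 on the CPB replicates and 45.5, 37.0 and 67.5 on the sham replicates, with a difference of 0.48 (SE 0.37) that was 0.06 without CPB replicate 2. Hprt1, of purine salvage, Prdx6, a peroxiredoxin that repairs oxidised phospholipids, and Ddt, D-dopachrome tautomerase, differed by 0.34 (SE 0.31), -0.06 (SE 0.32) and -0.06 (SE 0.29). Of 38 redox genes listed, 7 were measured, Prdx6 the single member, and 0 passed.

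Transcription and chromatin members were 4. Dlx5, a homeobox factor known from bone and craniofacial development, was the seventh-ranked member at 14.61, 13.73 and 14.55 on sham replicates 1, 2 and 3 and at 14.61, 13.84 and 13.57 on the CPB replicates. CPB replicate 1 equalled the highest sham value, and the difference was -0.29 (SE 0.34), or 0.11 after median scaling. Mef2d, a muscle transcription factor, stood at 11.88, 10.88 and 12.05 on the sham replicates and at 11.26, 11.13 and 11.54 on the CPB replicates. The sham values of Mef2d spanned more than the CPB values and enclosed them, with a difference of -0.29 (SE 0.34), or 0.10 after median scaling. Nr4a2, an orphan nuclear receptor, differed by -0.09 (SE 0.35), and Ruvbl1, an ATPase of chromatin remodelling complexes, by 0.10 (SE 0.28).

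The 8 secreted, immune and epidermal members had a median difference of -0.35, and 7 of the 8 had a lower CPB mean, against 52.5% of all probes. After median scaling 3 of the 8 did, and their median was 0.05. Choosing members by a high sham value favours a lower CPB mean, which the 52.5% does not share, so this count is a description. Of 44 matrix, adhesion and secreted protein genes listed, 10 were measured and 9 of these had a lower CPB mean, with a median of -0.50 and 0 passing the threshold. Their median was -0.11 after median scaling, with 6 of the 10 lower, and 3 of the 10 are members (Penk, Aplp2 and Cd63). Of these members Penk alone belongs to the group described here, and 6 of the 10 genes were among the 100 brightest sham probes. Other lists leaned as well. A lower CPB mean was found for 6 of 7 redox genes and 6 of 8 mitochondrial energy genes, and a higher one for 8 of 11 membrane traffic genes. After median scaling 4, 0 and 1 genes of these 3 lists had a lower CPB mean. Flg, filaggrin of the outer skin, stood at 12.60, 12.35 and 12.97 on sham replicates 1, 2 and 3 and at 12.05, 12.18 and 11.54 on the CPB replicates. No CPB value reached the lowest sham value, and CPB replicate 2 came nearest, for a difference of -0.72 (SE 0.30). It was between -0.87 and -0.51 with any single array left out and -0.33 after median scaling. Krt1, an epidermal keratin, differed by 0.09 (SE 0.38) and ranked 27.0 on CPB replicate 2 against 85.0 and 63.5 on CPB replicates 1 and 3.

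Penk, the precursor of enkephalin peptides, was at 12.15, 11.54 and 11.74 on sham replicates 1, 2 and 3 and at 10.09, 11.66 and 11.08 on the CPB replicates. CPB replicate 2 lay within the sham range and CPB replicate 1, at 4 steps above the lowest level, lay farthest below it. The difference was -0.87 (SE 0.37), and it was -0.43 without CPB replicate 1. S100a9, a calcium-binding protein of neutrophils, stood at 10.88, 12.47 and 11.55 on the sham replicates and at 9.49, 11.39 and 10.81 on the CPB replicates. Within each group replicate 1 was the lowest and replicate 2 the highest, and the groups overlap. Between arrays of the same number the CPB value was lower each time, with differences of -1.39, -1.08 and -0.74 for numbers 1, 2 and 3. The labels do not pair the arrays, and a single sign over the numbers was not particular to S100a9. Flg and Tmod2 were also lower each time, and Acat1 and Hnrnpa1 higher each time, among others. The S100a9 difference of -1.07 (SE 0.47) was the lowest of the members, and it was -0.54 without CPB replicate 1 and -0.65 without sham replicate 2. Its SE was 0.47 in the fit without pairing and 0.17 with the replicate number as a block, where the limma adjusted p was 0.724.

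Edn2, an endothelin peptide that constricts vessels, and Clec10a, a lectin of macrophages, each differed by -0.35 (SE 0.31 and 0.29), and by 0.09 and 0.02 after median scaling. Klrd1, a receptor chain of natural killer cells, ranked 59.5, 92.0 and 191.0 on CPB replicates 1, 2 and 3 and between 90.0 and 97.0 on the sham replicates. Dspp, a tooth dentin protein, differed by -0.05 (SE 0.29). It was the single member with another probe on the array, and that probe ranked between 513.0 and 943.5 over the 6 arrays and was at the lowest level on 2 of them, so the bright signal belongs to 1 of its 2 probes. S100a9 was also the single neutrophil and monocyte marker measured of 4 listed. Beside this group, the summed level of the macrophage markers C1qb and Aif1, on the log2 scale, ran from 12.10 to 12.47 on the CPB arrays and from 12.41 to 12.76 on the sham arrays. That of the lymphocyte markers Cd8a and Cd3d ran from 10.63 to 12.28 on the CPB arrays and from 10.57 to 11.06 on the sham arrays. The summed level of the fibroblast markers Dcn and Sparc, which the rule removes by name, ran from 13.47 to 14.42 on the CPB arrays and from 14.95 to 15.15 on the sham arrays. That of the nerve and glia markers Sox10, Gfap, Prph and S100b ran from 11.97 to 12.23 on the CPB arrays and from 12.35 to 12.55 on the sham arrays. For these fibroblast and nerve lists every CPB array lay below every sham array, as they also did in the values as deposited, and the groups overlapped after median scaling. The smooth muscle markers Myh11 and Tagln ran from 12.92 to 13.83 on the CPB arrays and from 13.03 to 13.41 on the sham arrays. Each sum adds linear intensities, so the brighter gene of a list weighs most, and a sum does not show whether its genes go the same way. C1qb, Myh11 and Tagln are also removed by name. None of the markers measured was at the lowest level on all arrays, and their part in the differences was not tested.

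**Figure D4:**
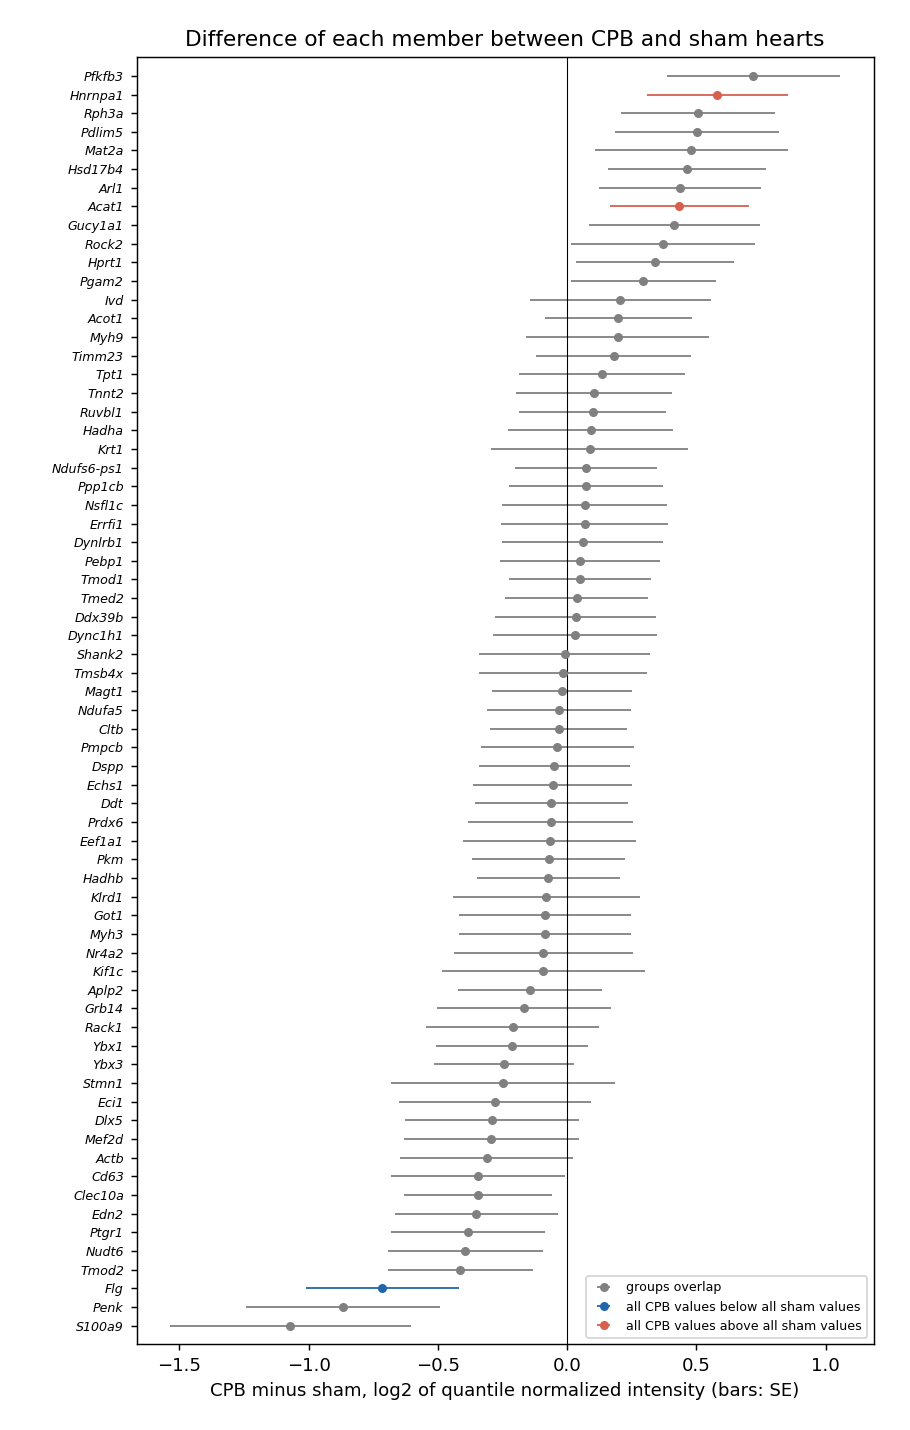
CPB minus sham difference of each of the 68 members in log2 of quantile normalized intensity, ordered by size, with bars of 1 SE from the limma fit. Coloured points mark groups that do not overlap: Flg below, and Acat1 and Hnrnpa1 above, while the range runs from -1.07 for S100a9 to 0.72 for Pfkfb3.

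Arrays with the same replicate number in the 2 groups tended to deviate together over the members. Deviations from the group mean correlated across the 68 members at 0.217, 0.316 and 0.423 for the CPB and sham arrays numbered 1, 2 and 3, and at -0.272 to -0.019 for the 6 pairs with unequal numbers. These values run across genes, which are not independent replicates, and within a group deviations must sum to 0. Eci1 is an example, with 14.08 and 14.19 on the CPB and sham arrays numbered 3 and 12.63 to 13.30 on the other 4. Kif1c is another, at 13.57 and 13.67 on the arrays numbered 3 and 12.03 to 12.92 on the others. With the number as a block in the limma fit, 0 members passed (lowest adjusted p = 0.724). Without adjustment, the block gave a p under 0.05 for 1 member with a lower CPB mean (S100a9), where 1.77% of all probes had it, and for 3 with a higher one (Hnrnpa1, Hsd17b4 and Gucy1a1), where 1.43% did. Flg, Penk and Pfkfb3, which had it without the block, did not have it with the block.

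Most of the set was kept when all 6 arrays, or the 3 CPB arrays alone, chose it. The choice on all 6 arrays includes the sham arrays of the rule, so part of its overlap is built in. Ranks averaged over all 6 arrays gave 67 genes by the same rule, 62 of them members (92.5% of that set and 91.2% of the members). Penk, S100a9, Ptgr1, Mef2d, Ddt and Hadha dropped out, and Tomm20, Myo5b, Ap2m1, Litaf and Ppp1cc came in. Ranks averaged over the 3 CPB arrays gave 68 genes, 58 of them members (85.3% of each set). The count with a lower CPB mean was 37 of 68 in the set chosen on sham arrays, 32 of 67 in the set chosen on all arrays and 28 of 68 in the set chosen on CPB arrays. The median differences were -0.03, 0.03 and 0.06 in the same order. For the set chosen on sham arrays the sign of the median also changed with the scaling and with single arrays left out.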

How the data were processed

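Whole-heart total RNA was measured on 1 array per animal (3 CPB, 3 sham), and groups and numbers came from the titles. The authors deposited values on a natural log scale. This was judged from the values, since the labels name no unit, array, scanner or normalization: their hyperbolic sine takes evenly spaced levels on each array (within 0.00061 of a step), starting from a lowest level. Taking 2 times the hyperbolic sine gave linear values, which were quantile normalized with ties averaged, and converted to log2 without a pseudocount. Differences were fitted with limma 3.58.1 in R 4.3.3 (variance trend, two-sided, Benjamini-Hochberg over all 1185 probes, threshold 0.05), checked on simulated data. An exact permutation test of 3 against 3 cannot go below p = 0.1.

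Symbols came from the platform annotation; 2 probes with several symbols and 70 unnamed probes were not ranked, and all 68 members matched RefSeq (GRCr8) by gene identifier. Ties in mean rank were broken by mean value, then probe identifier. Members, role groups and gene lists were chosen with earlier results of these data known. All members are named. By a written rule, values on every array are given for the 8 brightest, for those with groups apart, for the 4 extreme differences in each direction, for the 3 with the widest sham ranks, for the 3 lowest on CPB arrays and for the edge of the set; other values shown were picked as examples. Replicate numbers are shared between groups, and deviations correlated over all probes at 0.240, 0.277 and 0.296 for numbers 1, 2 and 3, so by a rule of 0.1 they may pair the samples. The pairing rests on the data, not the labels. The share of probes at the lowest level was 27.4%, 10.7% and 47.3% on CPB replicates 1, 2 and 3. On the sham replicates it was 25.9%, 20.5% and 43.3%. This share thus also goes with the number, and its part in the correlations was not tested. Alternatives were other scalings, a pseudocount, a filter on the lowest level, no variance trend, the block, each array left out, and other choices of the set.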

Additional observations from a re-analysis of the deposited data

How the results depend on the processing

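Across 13 alternative fits, 0 members passed the threshold (lowest limma adjusted p = 0.327). Over all probes 1 passed in the values as deposited and 1 without CPB replicate 1 (Sparc, a matrix gene outside the 68, in each), and 0 without any other single array. Members with a lower CPB mean numbered 37 in the fit reported, 5 after median scaling and 18 after scaling to the 75th percentile, and their median difference was then 0.38 and 0.18. With an array left out that count ran from 25 to 43 and the median from -0.097 to 0.071. Members whose groups did not overlap numbered 3, but 5 as deposited and 6 to 14 with an array left out, where fewer arrays make overlap rarer. The shares of all probes with a lower CPB mean or with groups apart were counted only in the fit reported. The counts at other settings therefore have no background beside them and are not read as a result about the members. A replicate block cannot move a mean difference in this balanced design (median -0.03, as without it), and it changed no adjusted call. The cause of the shifts with scaling was not tested. Over the 10 alternatives that can move a member's difference, 137 of 680 differences changed sign, 48 of the 68 members did so at least once, and 47 differences moved by more than the replicate SD. Taking the 80 or 120 brightest probes gave 52 or 85 genes. Coarse steps limit the dimmer members, and 3 arrays a group limit every difference.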
